A study of Mus musculus with 4 samples.

Results

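The genes described here encode ligands, receptors and inhibitors of transforming growth factor beta (TGF-beta) and activin signalling, namely Tgfb1, Tgfb2, Tgfb3, Inhba, Inhbb, Tgfbr1, Tgfbr2, Tgfbr3, Fst and Smad7. They were taken by symbol from the probe sets of an Affymetrix mouse array that the platform annotation gives to exactly 1 gene. Of the 10 genes, 9 were measured, with 16 probe sets in all, among 17097 named genes and 45141 probe sets. Inhbb, which encodes another activin beta subunit, had no such probe set and is not analysed here.

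RNA came from mouse mammary gland cells sorted 3 days after transplantation, 50 cells per array. The BC alone group had been transplanted as 10000 BC cells, which the labels call the multipotent condition. The control group had been transplanted as 8000 LC cells together with 2000 BC cells, called unipotent. Each group had 2 arrays. The labels leave BC and LC unexplained; the field uses them for basal and luminal cells. No strain, age, genotype, sorting gate or animal is given in the labels, so any p-value covers only array-to-array spread and may be technical. LC cells were added and BC cells were fewer in the control, and these effects cannot be told apart.

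TGF-beta and activin are secreted dimers that bind a type II receptor, which then phosphorylates a type I receptor. The type I receptor phosphorylates Smad2 and Smad3, which enter the nucleus with Smad4 and regulate target genes. In the mammary gland the pathway is known for restraining ductal growth and for inducing matrix genes. Follistatin, the product of Fst, captures activin outside the cell, and Smad7 blocks the type I receptor inside it.

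Control replicate 2 stood apart from the other arrays. Its values had an SD of 1.44 over all probe sets, against 1.90 to 1.92 elsewhere. Its Pearson r with the others was 0.915 to 0.919 across probe sets (which are no replicates), while each of the other 3 arrays had an r of at least 0.970 with the array nearest to it. The median of 8 basal markers, such as the keratin genes Krt5 and Krt14 and the transcription factor gene Trp63, was 9.64 to 9.98 on the other 3 arrays and 5.69 on control replicate 2. The median of 12 luminal markers was 6.92 to 7.92 on those arrays and 7.04 on control replicate 2, where 6 of the 12 were at their lowest. Krt8 had 8.0 there against 10.16 on control replicate 1 and Epcam 7.54 against 10.11, while Foxa1 had 7.36 against 4.79. In a mixture of sorted cells, fewer cells of a type and less RNA per cell cannot be told apart. The main results are therefore given with and without this array. Without it the control group is a single array, so only the size of the difference is given.

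Of the 9 measured genes, 6 had a higher mean in BC alone and 3 a lower one, where 47% of all genes had a higher mean. All values are log2 expression, 1 probe set per gene, the brightest. Mean values of the 9 genes ran from 6.28 to 8.66, above the array medians of 4.37 to 4.62. Shares of all genes take in dimmer genes and were not matched for brightness. The groups did not overlap for 3 genes, Tgfbr2 and Tgfbr3 on the higher side and Inhba on the lower, where the arrays of 36.4% of all genes did not overlap. By direction these were 2 higher and 1 lower, against 16.8% and 19.6% of all genes. All 3 differed at least 2-fold, which with no overlap held for 5.69% of all genes. The median difference of the 9 genes was 0.70, against -0.04 over all genes, and turned to -0.16 against 0.005 without control replicate 2. No member passed limma with Benjamini-Hochberg adjustment over all genes, with adjusted p from 0.842 to 0.897, and 0% of the 17097 genes did. With 2 arrays in each group the smallest p an exact permutation test can give is 0.333. At an unadjusted p under 0.05 in limma there were 2 of the 9, Inhba and Tgfbr2, against 3.98% of all genes, and with an intensity trend 0 passed after adjustment, against 0.567% of all genes.

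**Figure D1:**
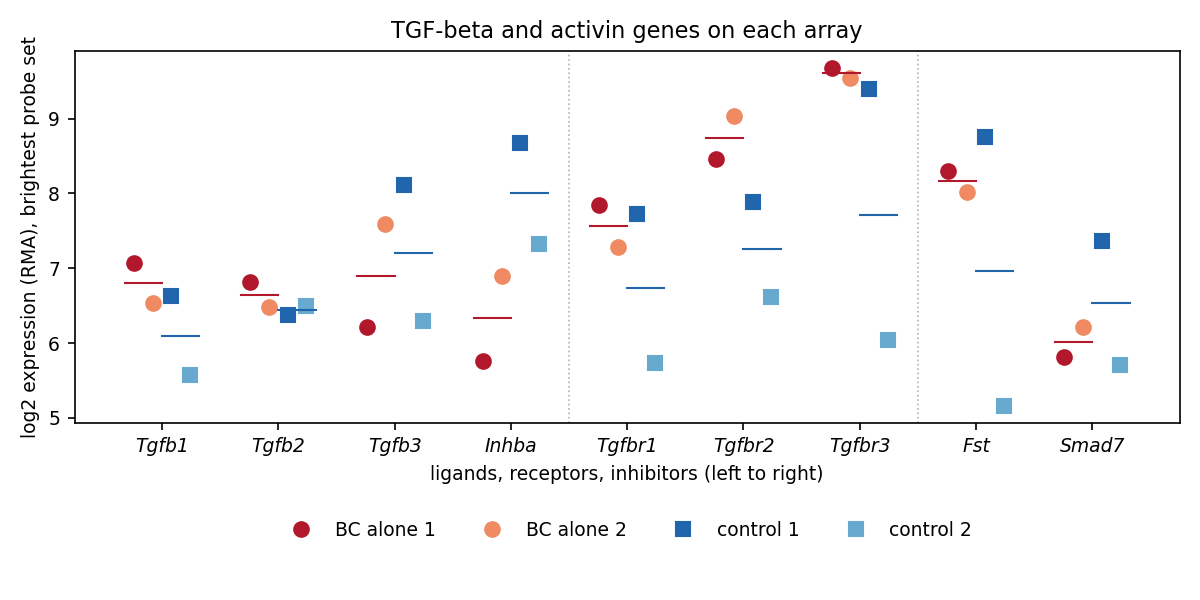
Log2 expression of the brightest probe set of each measured gene on the 4 arrays, with circles for BC alone, squares for the control, and horizontal lines at group means (n = 2). Control replicate 2 is the lowest array for 6 of 9 genes, while for Inhba both control arrays lie above both BC alone arrays.

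Inhba, which encodes the beta A subunit that makes up activin A, was the only one of the 3 members with a lower mean in BC alone whose groups did not overlap. It had 5.76 and 6.90 in BC alone and 8.67 and 7.33 in the control. Both control arrays were above both BC alone arrays, with 0.43 between the nearest values of the groups, less than the 1.14 between the BC alone arrays and the 1.34 between the controls. The means were 6.33 ± 0.81 and 8.0 ± 0.95 (SD, n = 2), a difference of -1.67 ± 0.61 (SE; limma, adjusted p = 0.842) or 3.18-fold. Leaving out control replicate 2 gave -2.34, and leaving out control replicate 1 gave -1.0. Over all 12 alternatives, some of which cannot change the difference by design, it stayed negative, from -2.34 to -0.84. After another quantile normalization the control arrays had 8.37 and 8.23 and the BC alone arrays 5.72 and 6.73, so that the controls lay closer together there. The other probe set of Inhba was at 3.45 to 3.55 on all 4 arrays, below the array median on each, with a difference of -0.005.

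The start of Inhba is shown because this gene was the lower member whose groups did not overlap. RefSeq's table for GRCm38.p6 gives the 250 bases before a start site of Inhba at chr13:16011601-16011850 on the plus strand, a window that lies inside the gene's annotated span, downstream of a further start. Of the 4 motifs searched on both strands, the Smad box was spelled CAGAC. The AP-1 site, bound by Fos and Jun proteins, was spelled TGANTCA. The TATA box, where transcription of some genes is positioned, was spelled TATAAA. The GC box, common near start sites of widely expressed genes, was spelled GGGCGG. Capitals mark the only match in this window.
Inhba: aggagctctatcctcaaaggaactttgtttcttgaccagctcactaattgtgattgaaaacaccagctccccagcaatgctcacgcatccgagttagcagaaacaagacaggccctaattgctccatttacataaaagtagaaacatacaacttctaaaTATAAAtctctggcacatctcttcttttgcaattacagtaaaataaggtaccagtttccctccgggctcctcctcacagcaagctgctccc
The TATAAA match lies 91 to 86 bases before the start, and 12.4% of the 32851 windows of this length in the table hold one. The GC content of the window was 43.2%, where the middle of all windows, from the 25th to the 75th percentile, spans 45.2% to 61.2%. These matches are descriptions of letters and not sites of binding.

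Genes whose 4 values followed those of Inhba most closely were Foxi1, Cd74 and Mrc1. Likeness was the Euclidean distance over the 4 arrays after each gene's own mean was subtracted, and these lay at 0.352, 0.388 and 0.523 on the log2 scale. Cd74 had 5.99 and 6.92 in BC alone and 8.36 and 7.25 in the control, the same order of arrays as Inhba. Among 6 macrophage markers, 4 had a lower mean in BC alone, with a median over the list of 4.15 and 4.74 on the BC alone arrays and 4.78 and 4.96 on the controls. Ptprc and Itgam, markers of leukocytes and myeloid cells, were below the array median on every array. Cd68, C1qa and Csf1r, also on the list, were above it on every array. Cd68 and C1qa had a higher mean in BC alone, by 0.385 and 0.11. The part of such cells in the Inhba values was not tested.

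The TGF-beta ligand genes had smaller differences than Inhba and overlapping groups. Tgfb1, the most widely expressed ligand, had 7.07 and 6.53 in BC alone and 6.63 and 5.57 in the control, a difference of 0.70 ± 0.46 (SE, n = 2 per group). Control replicate 1 fell between the BC alone arrays, so the groups overlapped, and without control replicate 2 the difference was 0.17. Tgfb2 had 6.81 and 6.48 against 6.37 and 6.50, the narrowest range of the 9 genes, and a difference of 0.21 ± 0.31, which turned to -0.18 after quantile normalization and -0.12 after cyclic loess. Tgfb3, a ligand known from developing tissues, had 6.21 and 7.59 against 8.11 and 6.29. Its arrays differed by 1.38 within BC alone and by 1.82 within the control, both more than the difference of -0.30 ± 0.75 between the groups. Against control replicate 1 alone that difference was -1.21, and against control replicate 2 alone it was 0.61.

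Tgfbr2, the type II receptor that binds TGF-beta first, was higher in BC alone on both arrays. It had 8.46 and 9.03 in BC alone and 7.89 and 6.62 in the control. The lower BC alone array was 0.57 above the higher control, as much as the BC alone arrays differed from each other. The means were 8.745 ± 0.40 and 7.255 ± 0.90 (SD, n = 2), a difference of 1.49 ± 0.51 (SE; limma, adjusted p = 0.842) or 2.81-fold. Without control replicate 2 the difference was 0.855. Over the 12 alternatives, some of which cannot change the difference by design, it stayed positive, from 0.66 to 2.125. After quantile normalization the difference was 0.954, under 2-fold. A second probe set had 6.56 and 7.02 against 6.33 and 5.83, again without overlap, at a difference of 0.71. The dimmest had 2.76 to 3.23, below the array median on every array, and a difference of -0.22.

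The 250 bases before the start of Tgfbr2 are shown because its groups did not overlap, in both of its 2 brighter probe sets. No window was available for Tgfbr3, the other higher member without overlap. The window of Tgfbr2 is chr9:116175364-116175613 on the minus strand of GRCm38.p6, from RefSeq's table, printed along the gene's strand. Capitals mark the only match to the same 4 motifs.
Tgfbr2: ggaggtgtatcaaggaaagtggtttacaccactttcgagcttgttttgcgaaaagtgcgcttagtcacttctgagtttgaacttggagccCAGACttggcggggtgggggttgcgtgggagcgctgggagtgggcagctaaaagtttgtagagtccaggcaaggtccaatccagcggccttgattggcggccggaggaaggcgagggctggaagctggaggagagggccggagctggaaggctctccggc
The CAGAC match lies 160 to 156 bases before the start, and 42.2% of all windows hold this short motif on one of the strands. The window had a GC content of 58.4% and, unlike that of Inhba, no TATAAA. For comparison, GGGCGG was found in 32.7% of all windows and 5 times in that of Tgfb1, and TGANTCA in 6.75% and in none of the windows of the 6 members that the table holds.

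The genes whose arrays followed Tgfbr2 most closely were Boc, Mrc2 and Xbp1, at distances of 0.127, 0.172 and 0.207. Boc had 7.58 and 8.12 in BC alone and 6.90 and 5.58 in the control. Fibroblast markers lay in the same direction, with a higher mean in BC alone for 6 of 8. The BC alone arrays had a list median of 6.86 and 7.01 and the controls 6.06 and 5.17. Dcn, a proteoglycan gene of fibroblasts, had 10.84 and 11.16 against 9.91 and 8.02. Pdgfrb and Col1a2 had a lower mean in BC alone, by 0.105 and 0.06, and Pdgfrb was highest on control replicate 2, at 7.37. Pdgfra and Col1a2 were below the array median on every array. The part of fibroblasts in the Tgfbr2 values was not tested.

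Tgfbr3 encodes betaglycan, a coreceptor that presents TGF-beta to the type II receptor and also binds inhibin. It had 9.68 and 9.54 in BC alone and 9.39 and 6.04 in the control. Control replicate 1 was only 0.15 below the nearer BC alone array, and control replicate 2 was 3.35 below control replicate 1. The difference of 1.895 ± 1.05 (SE; limma, adjusted p = 0.842) became 0.22 without control replicate 2. The second probe set was also higher on both BC alone arrays and lowest on control replicate 2, with 8.07 and 8.28 against 7.88 and 5.60. Of all genes, dimmer ones included, 0.246% had a larger drop from control replicate 1 to control replicate 2. Postn, Bgn and Trp63 were the genes most like it over the 4 arrays, at distances of 0.110, 0.196 and 0.263, and Trp63 was at 8.74, 8.76, 8.81 and 5.20. Of the 8 basal markers, 7 were also lowest on control replicate 2. Their part in the Tgfbr3 values was not tested.

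Tgfbr1, the type I receptor that carries the signal inside, shared this dependence on 1 array. It had 7.85 and 7.29 in BC alone and 7.73 and 5.73 in the control. The control arrays differed by 2.00, and control replicate 1 lay between the BC alone arrays. The group difference was 0.84 ± 0.69 over 4 arrays and -0.16 without control replicate 2. A second probe set had 6.68 and 6.63 against 6.73 and 5.84, and a dimmer one had 4.22 and 4.93 against 4.22 and 4.45.

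**Figure D2:**
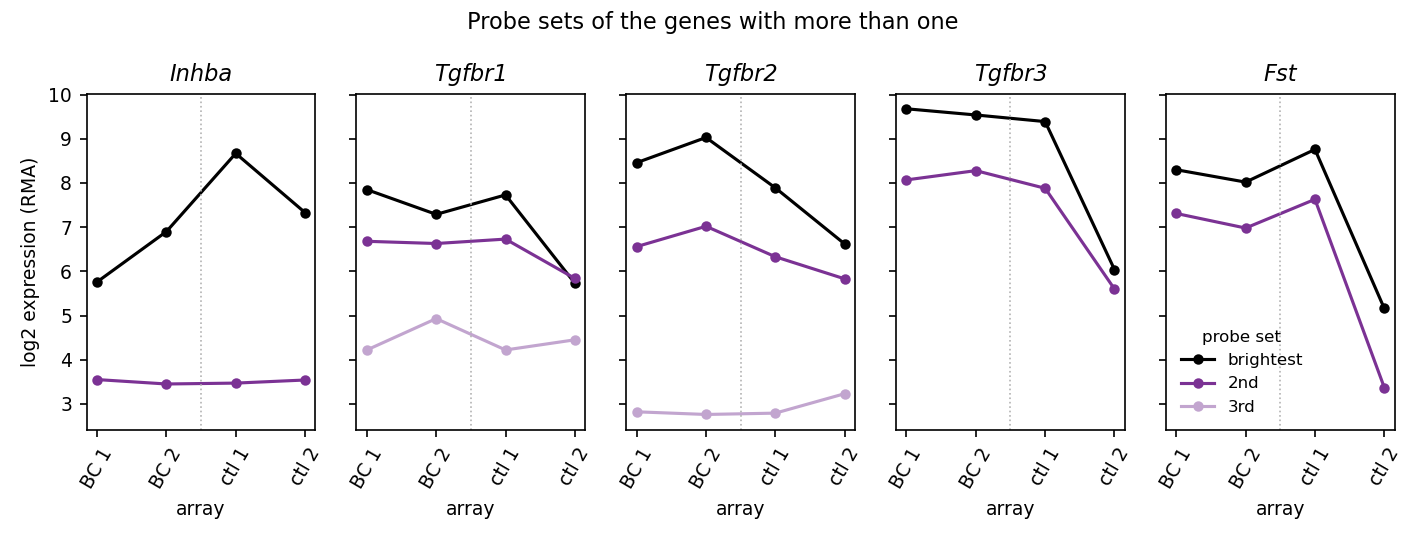
Log2 expression on each array of every probe set of the 5 genes with more than 1, joined by lines to follow a probe set and not to show an order. Both probe sets of Tgfbr3 and of Fst are lowest on control replicate 2, the 2 brighter ones of Tgfbr2 are higher on both BC alone arrays, and the dim ones of Inhba and Tgfbr2 are nearly flat.

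The inhibitors Fst and Smad7 were both highest on control replicate 1. Fst had 8.30 and 8.02 in BC alone and 8.76 and 5.16 in the control, so the BC alone arrays lay between the controls. The difference was 1.20 ± 1.13 over 4 arrays (SE; limma, adjusted p = 0.842) and -0.60 without control replicate 2, a change of sign. A second probe set had 7.31 and 6.98 against 7.63 and 3.37, with the same order of arrays. Of all genes, dimmer ones included, 0.158% dropped more than Fst between the controls. Smad7, which is itself induced by TGF-beta and feeds back on the receptor, had 5.82 and 6.21 in BC alone and 7.37 and 5.71 in the control. Control replicate 1 stood at least 1.16 above every other array, and control replicate 2 lay just below BC alone. The difference was -0.525 ± 0.59 over 4 arrays, -1.355 without control replicate 2 and 0.305 without control replicate 1.

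**Figure D3:**
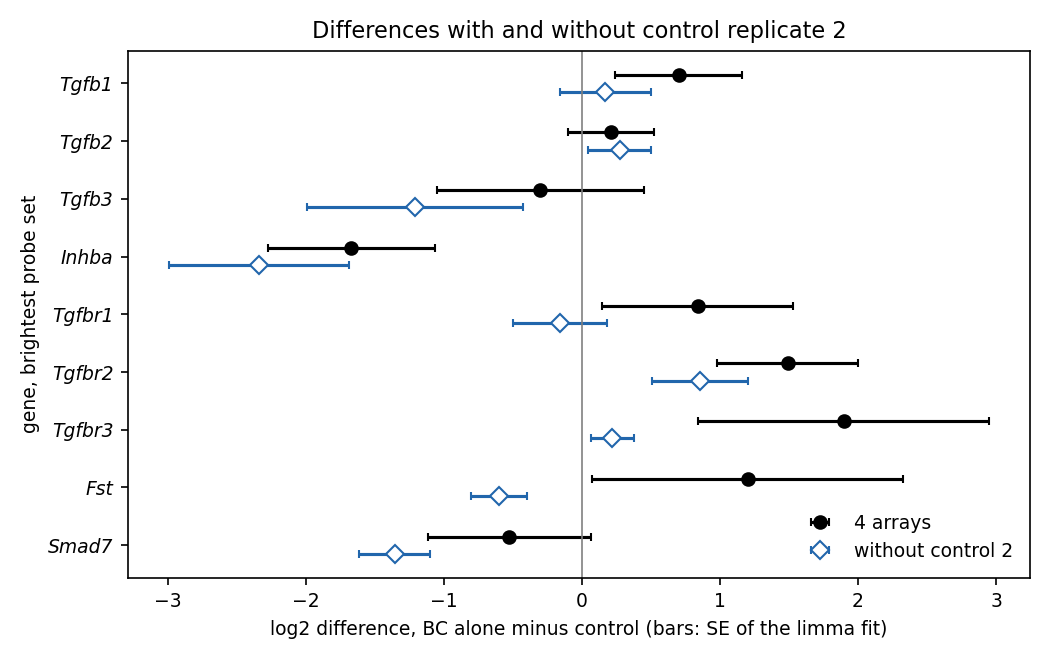
Log2 difference, BC alone minus control, of the brightest probe set of each gene, over 4 arrays (filled circles) and without control replicate 2 (open diamonds), with bars for the SE of the limma fit. Without control replicate 2 the control is a single array, so the bars of the diamonds hold no spread between controls. Inhba stays negative and Tgfbr2 positive in both, while Tgfbr1 and Fst change sign and Tgfbr3 goes from 1.895 to 0.22.

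Which members differed most therefore depended on the control array. Against both controls, the members at least 2-fold different without overlap were Inhba, Tgfbr2 and Tgfbr3. Against control replicate 1 alone they were Inhba, Tgfb3 and Smad7, all lower in BC alone, and 4 of the 9 had a higher mean, where 51.2% of all genes had a higher mean and 2.19% of all genes were higher and 2.09% lower by the 2-fold rule. Control replicate 2 was the lowest array for 6 of the 9 genes, against 34.1% of all genes. Of the 9 genes, 8 were lower on control replicate 2 than on control replicate 1 by at least 1 on the log2 scale, against 18.3% of all genes. Tgfb2 was the exception, at 6.37 and 6.50. Control replicate 2 had the narrowest spread of values, and these shares of all genes include dimmer genes. Whether other genes as bright as the members fell as often on that array was not tested.

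**Figure D4:**
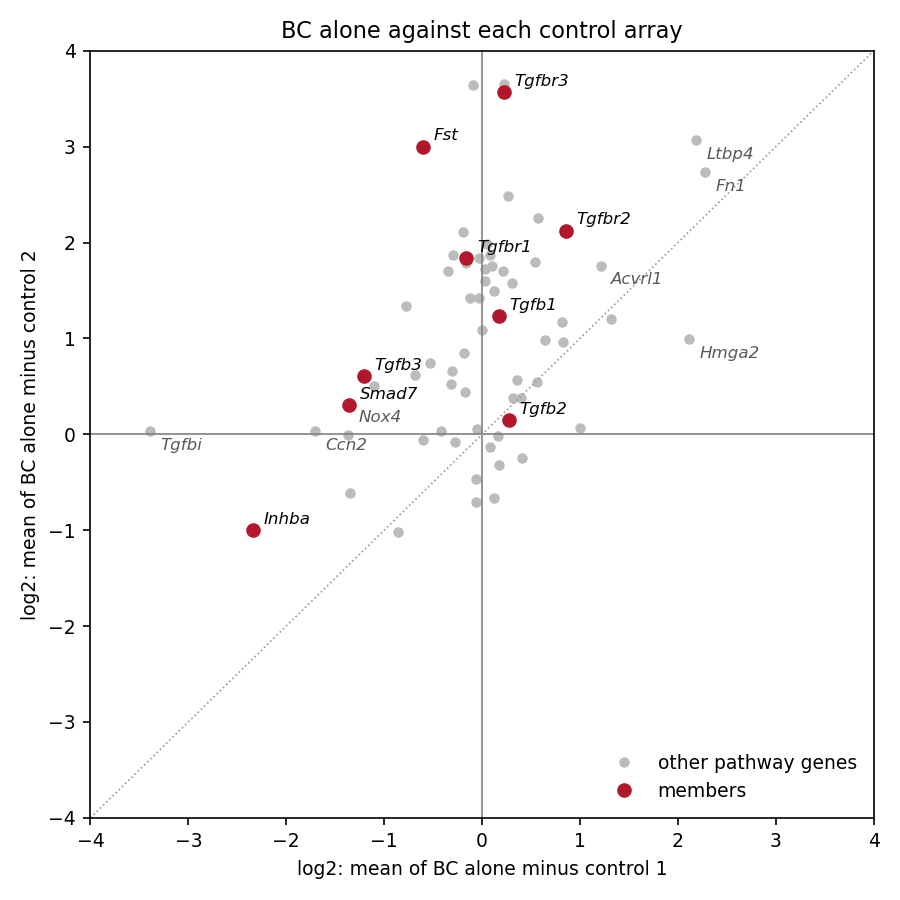
Mean of BC alone minus control replicate 1 (horizontal) and minus control replicate 2 (vertical) on the log2 scale, for the 9 members (red) and other pathway genes (grey), with a dotted line where both are equal. Inhba is negative against both controls and Tgfbr2 positive against both, while Fst and Tgfbr3 are near 0 or below against control replicate 1 and at 3.00 and 3.57 against control replicate 2.

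Around these members, 67 other genes of the pathway were listed by role, and 58 were measured. Of these, 43 had a higher mean in BC alone and 15 a lower one, with a median difference of 0.55, against 47% higher and a median of -0.04 over all genes. Without control replicate 2 the split was 30 higher and 28 lower, with a median of 0.03. After quantile normalization the median over 4 arrays was 0.187. None passed over all genes in limma (smallest adjusted p = 0.842), 7 had an unadjusted p under 0.05, against 3.98% of all genes, and with an intensity trend 1 passed, Tgfbi, against 0.567% of all genes. The groups did not overlap for 20 higher and 3 lower genes of the 58, against 16.8% and 19.6% of all genes. At least 2-fold and without overlap, 9 were higher and 0 lower, against 4.79% and 0.895% of all genes.

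The other ligand genes, among them Nodal, Gdf11 and the inhibin alpha gene Inha, had list medians of 3.86 to 3.94 on the 4 arrays, and 3 of 7 had a higher mean. These list medians lay below the array medians of 4.37 to 4.62, and values there cannot be told from background. Genes of latency, activation and processing were led by Ltbp4, which encodes a protein that tethers latent TGF-beta to the matrix. Ltbp4 had 8.89 and 9.58 in BC alone and 7.05 and 6.17 in the control, a difference of 2.625 ± 0.45 (SE; limma, adjusted p = 0.842) or 6.17-fold. It was 2.185 without control replicate 2, so both controls were well below both BC alone arrays. Of the 9 measured genes of that list 7 had a higher mean, and 4 without control replicate 2. Ltbp3, of the same family, had 9.80 and 9.84 against 10.02 and 7.71 and so was low on control replicate 2 only.

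Among the other receptors, Acvrl1, the type I receptor ALK1 known from endothelium, had 7.08 and 7.48 in BC alone and 6.07 and 5.52 in the control. The difference was 1.485 ± 0.36 (SE; limma, adjusted p = 0.842), and 1.21 without control replicate 2. Of the 8 genes of that list 6 had a higher mean, and 4 without control replicate 2. Endothelial markers had a higher mean in BC alone for 6 of 6, with medians of 5.80 and 6.46 in BC alone and 5.30 and 5.72 in the control, and their part in the Acvrl1 values was not tested. The activin receptor genes Acvr2a and Acvr2b differed by 0.105 and -0.19.

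Smad and nuclear partner genes had a higher mean in 7 of 8, and in 4 of 8 without control replicate 2. Smad4, the shared partner of the signalling Smads, had 8.56 and 8.45 against 8.42 and 6.64, and Skil, a repressor of the pathway, 9.37 and 9.34 against 9.39 and 7.52. In both genes control replicate 2 stood apart and the other 3 arrays lay close together. Of 5 other inhibitors 4 had a higher mean. Smurf1, a ubiquitin ligase that marks receptors for degradation, had 9.43 and 8.76 against 8.55 and 7.30, a difference of 1.17 that was 0.545 without control replicate 2.

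Target genes pointed both ways, with 16 of 21 higher and 5 lower, and 12 and 9 without control replicate 2. The 3 with the largest difference among those without overlap were Fn1, Postn and Hmga2. Fn1, fibronectin, had 9.48 and 9.19 in BC alone and 7.06 and 6.60 in the control. Hmga2, a chromatin protein gene, had 5.73 and 5.61 against 3.56 and 4.68, and its difference was larger without control replicate 2, at 2.11 against 1.55. Postn, periostin, had 9.86 and 9.84 against 9.63 and 6.20, low on control replicate 2 only.

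Control replicate 1 was above each of the other 3 arrays by at least 1 on the log2 scale for Inhba and Smad7 among the members and for Ccn2, Tgfbi and Nox4 among the target genes, which were singled out after their values were seen. This held for 0.714% of all genes. Tgfbi, a matrix protein gene named for its induction by TGF-beta, had 3.86 and 4.44 in BC alone and 7.54 and 4.12 in the control. Ccn2, connective tissue growth factor, had 4.98 and 4.90 against 6.65 and 4.91, and Nox4, an oxidase gene, 3.91 and 3.94 against 5.29 and 3.93. In these 3 genes control replicate 2 lay with BC alone, so they do not separate the groups.

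**Figure D5:**
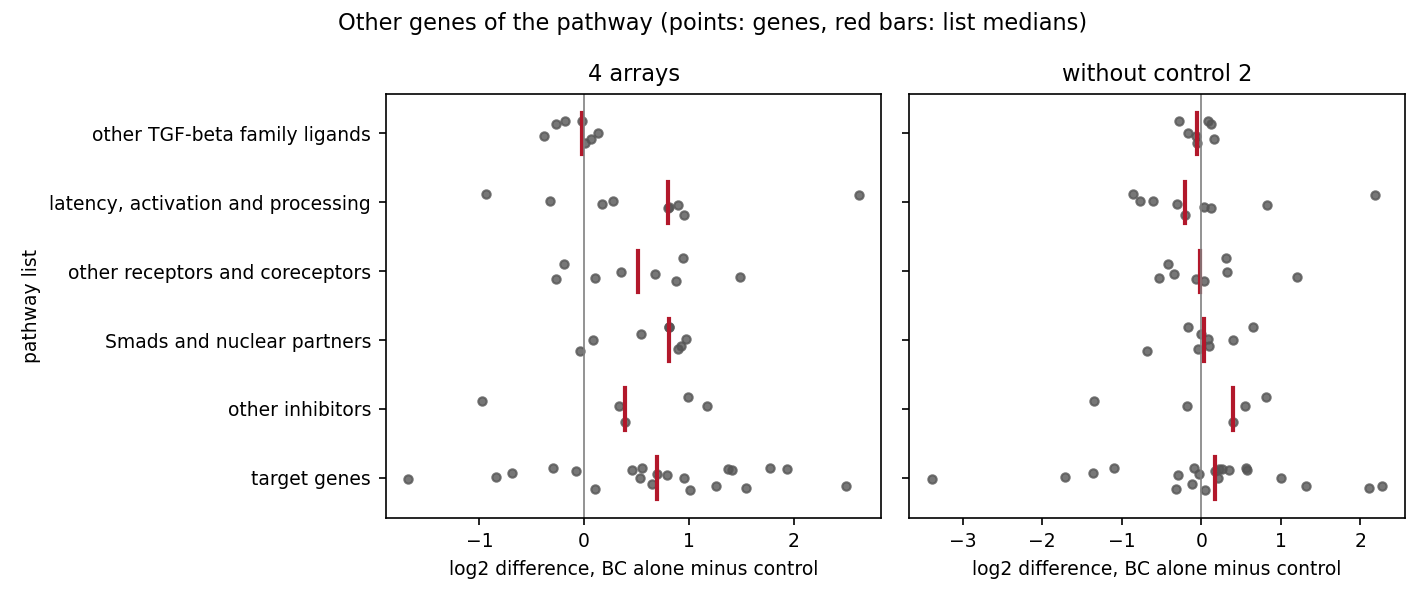
Log2 difference, BC alone minus control, of the other measured pathway genes by list, over 4 arrays (left) and without control replicate 2 (right), with 1 point per gene and red bars at list medians. Of the list medians, 5 lie above 0 over 4 arrays, from 0.39 to 0.81, and without control replicate 2 they run from -0.20 to 0.40, while Ltbp4 in the latency list and Fn1 among the target genes are above 2 in both panels.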

How the data were processed

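The authors deposited 1 log2 value for each probe set and array. Per the submitters' processing notes, these came from RMA in the affy package, versions not stated. RMA corrects background, normalizes quantiles and summarises probes. Whether the arrays were normalized together cannot be read from the values, and no detection calls came with them. No genome build is given for the array values, and the promoter windows are on GRCm38.p6.

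Probe sets were named from the platform annotation, which gave 1 symbol to 28898, several to 551 and none to 15692. The probe set with the highest mean over the 4 arrays stood for a gene, with no filter on dim ones. BC alone minus control was fitted over all 17097 genes with limma 3.58.1 under R 4.3.3 (lmFit, eBayes, two-sided, Benjamini-Hochberg, threshold 0.05, 2 residual degrees of freedom). The code was first run on simulated data with equal noise on all 4 arrays. That check held no array apart like control replicate 2, so it does not cover this feature of the data. Folds are 2 raised to a log2 difference, and RMA compresses large ones. The 2 arrays per group limit the precision. With 1 array left out, 1 residual degree of freedom is left, and an SE holds no spread within the group reduced to a single array. The members and lists were chosen with earlier results of these data known. Text names all members, up to 3 genes per direction and pathway list at least 2-fold different without overlap, the 3 genes nearest in profile to each of the 3 members with the largest differences, and markers. Other named genes were chosen after their values were seen. Marker lists not given in the report were lymphocyte (3 genes, median difference 0.06), adipocyte (2 genes, 0.022) and pericyte (3 genes, 1.64). Alternatives were 3 scalings, the mean of probe sets, a filter on dim genes, 2 variance models, the replicate block and leaving out each array.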

Additional observations from a re-analysis of the deposited data

How the results depend on the processing

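Inhba, Tgfbr2, Tgfbr3 and Tgfb1 kept their direction under all 12 alternatives. The other 5 members turned at least once, and the cause was not tested. The replicate block, the 2 variance models and the filter on dim genes leave a difference unchanged by design. These could not turn a direction. Tgfb2 turned to -0.184 after quantile normalization and -0.119 after cyclic loess. With 1 array left out, Tgfb3 ran from -1.21 to 0.61 (0.39 without BC alone replicate 1), Smad7 from -1.355 to 0.305, Tgfbr1 from -0.16 to 1.84 and Fst from -0.60 to 3.00. The last 2 turned without control replicate 2, and Smad7 without control replicate 1. Members at least 2-fold different without overlap numbered 3, and 2 after quantile normalization or cyclic loess, where Tgfbr2 was at 0.954 and 0.866. They numbered 1 with the mean of probe sets, and 3 to 6 when 1 array was left out. Over all genes that count was 972, 819 of them higher. It was 614 and 334 after quantile normalization, 533 and 301 after cyclic loess and 620 and 505 for averaged probe sets, and without 1 array it ran from 732 to 3824, with 375 to 3101 higher. Pathway genes at that size numbered 9, and 7 after quantile normalization, 6 after cyclic loess and 16 after median centring. Without 1 array they numbered 10 to 28. The median difference of all measured pathway genes, 0.547, was 0.187 after quantile normalization and 0.15 after cyclic loess. It ran from 0.03 without control replicate 2 to 0.975 without control replicate 1. Genes called numbered 0 in limma, where 680 had an unadjusted p under 0.05, 97 with an intensity trend and 0 with robust variances. The replicate block gave 108 calls, among them Tgfbr3 at 1.895 (adjusted p = 0.039) and no other member, on 1 residual degree of freedom. The labels name nothing that pairs equal replicate numbers, so the numbers were not taken as pairs. Deviations of same-numbered arrays correlated at -0.0184 over genes, which with 2 pairs cannot decide whether they were paired. No detection calls exist, so values near or under the array median cannot be told from background.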

Other observations

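Of the 58 measured pathway genes, 20 were higher and 3 lower in BC alone without overlap, where the groups of 36.4% of all genes did not overlap, and 9 of these were at least 2-fold different. Among those under 2-fold, 3 are given here, picked with their values in view. Bambi, which encodes a decoy receptor, had 4.76 and 5.06 in BC alone and 6.26 and 5.52 in the control, a difference of -0.98 ± 0.38 (SE; limma, adjusted p = 0.842) that was -1.35 without control replicate 2. Cdkn2b, a cell cycle inhibitor gene, had 4.99 and 4.54 against 4.2 and 4.22, a difference of 0.555 ± 0.32 that was 0.565 against control replicate 1 alone. Smurf2, a ubiquitin ligase gene like Smurf1, had 8.19 and 8.41 against 7.48 and 7.13, a difference of 0.995.

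Single arrays also stood out over the whole genome in unequal numbers. Control replicate 2 lay at least 1 below each of the other 3 arrays for 12.1% of all genes and for 4 of the 9 members, Tgfbr1, Tgfbr2, Tgfbr3 and Fst. It lay at least 1 above each of the others for 2.29% of genes, and no member was among them. Neither share was matched for brightness.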
